A study of Mus musculus with 23 samples.

Results

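The antiviral interferon-stimulated genes and RNA sensors were followed as 40 named genes in 23 MC38 tumors. The members were a fixed list of symbols, matched by GENCODE annotation to the gene identifiers of the count table, and 40 of 40 were found among 26869 genes. No measured value of these tumors entered that matching, but the list itself was chosen with earlier results of these data known. MC38 cells, a colon carcinoma line of C57BL/6 mice, were injected under the skin of female F1 hosts aged 8 to 12 weeks. Each host was the offspring of C57BL/6J and one Collaborative Cross line, a recombinant inbred line bred from 8 founder strains. The crosses were with CC001/UncJ, CC002/UncJ, CC075/UncJ, CC036/UncJ, CC079/TauUncJ and CC080/TauUncJ, written CC001F1, CC002F1, CC075F1, CC036F1, CC079F1 and CC080F1. When tumors reached 75 to 110 mm3 the mice received a single intraperitoneal dose of 200 µg of antibody against PD-1 (aPD1, clone 29F.1A12) or of isotype control (clone 2A3), and tumors were taken after 48 h. There were 2 tumors for each line and antibody, and a single one (n = 1) for CC080F1 given aPD1. The study's text, not the sample labels, classed CC001F1, CC002F1 and CC075F1 as responder lines (R) and CC036F1, CC079F1 and CC080F1 as non-responder lines (NR). That gave 12 R tumors (6 isotype, 6 aPD1) and 11 NR tumors (6 isotype, 5 aPD1). In every host a C57BL/6J haplotype was present beside the Collaborative Cross haplotype. Alleles of the latter that differ from C57BL/6J were thus present in at most 1 copy and only in host cells.

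Interferons of type I and type III signal through STAT2 and IRF9, part of a complex that binds response elements in the promoters of antiviral genes, and interferon-gamma induces many of the same genes. RIG-I (Ddx58), MDA5 (Ifih1) and LGP2 (Dhx58) sense viral RNA in the cytoplasm, Zbp1 binds Z-form nucleic acid, and PKR (Eif2ak2) halts translation when it meets double-stranded RNA. Downstream products include the OAS enzymes that activate RNase L, the IFIT proteins that bind foreign RNA, the MX GTPases and viperin (Rsad2). In tumors the same genes are read as a trace of interferon in cancer cells, macrophages and lymphocytes alike.

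Library totals spanned 14494014 to 71868253 expected counts (median 42327589), and 6 libraries were shallow (14494014 to 18354585; 2 R and 4 NR) against 17 deep ones. Every member was well counted: normalized counts, that is counts divided by DESeq2 size factors, ran from 132 to 12415 over all members and tumors. The values are of bulk tissue, in which fewer cells of a type and less RNA per cell cannot be told apart. Macrophage transcripts were abundant in all tumors (summed normalized counts of 5 genes from 41220.0 to 138076), whereas the epithelial markers Epcam (at most 66.9), Krt8 (at most 178) and Krt18 (at most 156, and 0 in 7 tumors) were low in these samples of a carcinoma line. The other 2 genes of that list were counted in every tumor, Cdh1 at 79.9 to 858 and Shisal2b, listed as a marker of MC38, at 460.1 to 1138. The labels do not say that the 2 tumors of a group came from separate cohorts, so p-values measure only the spread between these tumors, which may be technical in part.

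Promoters are shown for 5 members that turn up in the comparisons that follow. These are Isg15, Oas3 and Rsad2, each with its own arrangement of the interferon response element, and the close copies Ifit3 and Ifit3b. Each line gives the 250 bases before the RefSeq start, 5′ to 3′ on the gene's own strand, on GRCm38.p6. The known interferon-stimulated response element repeats a short word after a gap of 2 bases, so every word of 4 bases that recurs after such a gap was counted on both strands, 136 words in all. Ranked by the share of members minus the share of all genes, the first was GAAANNGAAA (TTTCNNTTTC on the opposite strand), and capitals mark its matches.
Isg15 (chr4:156200819-156201068, minus strand): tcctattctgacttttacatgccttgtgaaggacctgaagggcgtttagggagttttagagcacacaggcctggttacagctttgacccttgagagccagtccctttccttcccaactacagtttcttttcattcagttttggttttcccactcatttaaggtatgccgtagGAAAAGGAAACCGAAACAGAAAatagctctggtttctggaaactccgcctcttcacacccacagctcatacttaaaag
Oas3 (chr5:120777660-120777909, minus strand): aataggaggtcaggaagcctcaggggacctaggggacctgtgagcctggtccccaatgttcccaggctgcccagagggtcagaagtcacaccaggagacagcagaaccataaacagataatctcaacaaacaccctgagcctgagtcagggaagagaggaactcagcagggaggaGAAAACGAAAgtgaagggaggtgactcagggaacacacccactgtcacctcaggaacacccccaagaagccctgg
Rsad2 (chr12:26456453-26456702, minus strand): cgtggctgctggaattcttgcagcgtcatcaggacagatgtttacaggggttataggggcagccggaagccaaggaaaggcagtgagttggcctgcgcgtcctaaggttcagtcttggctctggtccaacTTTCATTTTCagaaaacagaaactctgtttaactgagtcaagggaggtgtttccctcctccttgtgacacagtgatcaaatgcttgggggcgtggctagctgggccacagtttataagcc
Ifit3 (chr19:34583279-34583528, plus strand): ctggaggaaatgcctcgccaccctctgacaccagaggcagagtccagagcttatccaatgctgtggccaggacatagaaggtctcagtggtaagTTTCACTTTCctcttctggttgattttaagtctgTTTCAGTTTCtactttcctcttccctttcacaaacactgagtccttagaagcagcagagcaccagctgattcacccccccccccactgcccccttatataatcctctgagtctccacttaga
Ifit3b (chr19:34607707-34607956, plus strand): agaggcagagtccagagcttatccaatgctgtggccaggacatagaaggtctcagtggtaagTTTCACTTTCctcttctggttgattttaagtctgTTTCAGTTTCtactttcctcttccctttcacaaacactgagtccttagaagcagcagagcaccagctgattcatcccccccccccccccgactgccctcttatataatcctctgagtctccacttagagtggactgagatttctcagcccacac
The Isg15 promoter held 3 overlapping matches, whose first bases lie 78, 72 and 66 bases before the start, and Oas3 held 1 that began 75 bases before it. In Rsad2 the match lay on the opposite strand and began 120 bases before the start. Ifit3 and Ifit3b each held 2 on the opposite strand, 156 and 122 bases before the start in Ifit3 and 188 and 154 in Ifit3b. Both promoters were 86.24% identical over 218 bases, with a shared run of 169 bases, and as the genes are close copies the split of reads between them is uncertain. RefSeq promoters were found for 29 of 40 members, and 11 of the 29 (37.93%) held GAAANNGAAA on either strand, against 936 of 27025 genes (3.463%). The second was GTTTNNGTTT, which can overlap the first, in 10 of 29 members (34.48%) and 496 genes (1.835%). The word was picked for its share in these promoters, so the shares describe the letters of a 250 base window and carry no test. The promoters of Dhx58, Zbp1, Usp18, Parp9, Parp14, Oas1b, Oas2, Mx1, Mx2, Ifi27l2a and Rtp4 are named only.

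To see how the members moved as a body, each was centred on the mean of its line means of log2(normalized count + 1). The median over the 40 members was then taken in each of the 23 tumors. With isotype antibody the R tumors were low or near the mean, at -0.26 and 0.07 in CC001F1, -0.42 and -0.39 in CC002F1, and -0.45 and -0.13 in CC075F1. With aPD1 the medians were 0.31 and 0.22 in CC002F1 and 0.45 and 0.06 in CC075F1. The CC001F1 aPD1 tumors were far apart, with -0.09 in replicate 1 and 1.13 in replicate 2, the highest of the 23. All 40 members lay above their own mean of line means in CC001F1 aPD1 replicate 2, and 11 did in replicate 1. The 11 NR tumors ranged from -0.32 (CC036F1 aPD1 replicate 2) to 0.19 (CC036F1 isotype replicate 2), and their antibody groups overlapped. The plot of member levels by tumor shows these medians with their quartiles over members.

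**Figure D1:**
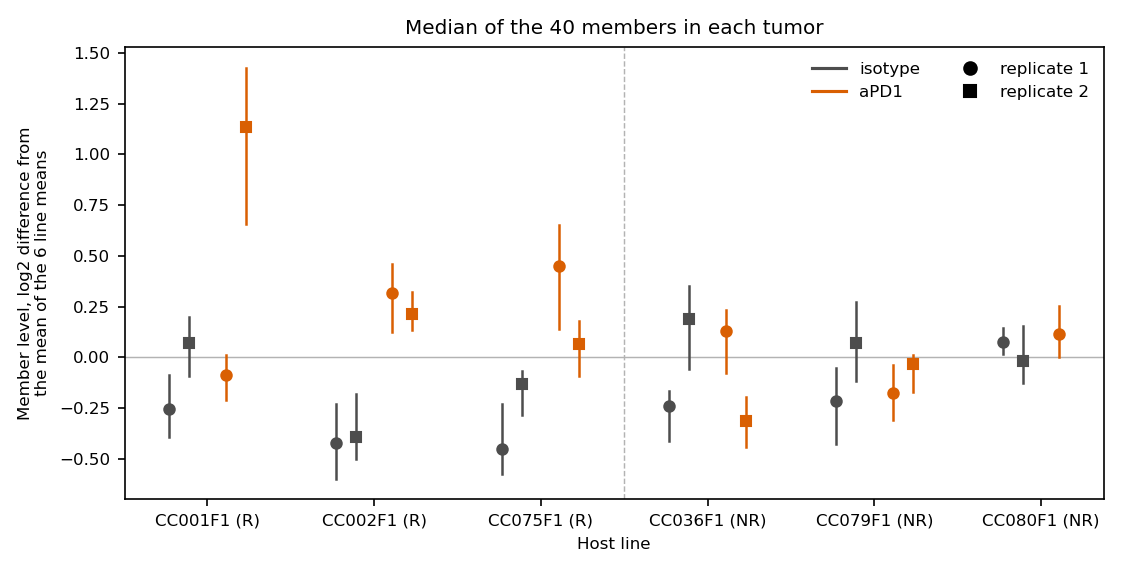
Level of the 40 members in each tumor by host line. Each point is 1 tumor, at the median over members of the log2 difference from the mean of the member's line means. The bar spans the quartiles over members, and colour gives the antibody. CC001F1 aPD1 replicate 2 stands at 1.13, replicate 1 of the same group at -0.09, and NR tumors lie between -0.32 and 0.19.

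The first comparison asked how aPD1 changed the members within R lines 48 h after the dose, with line as a term. Of the 40 members, 29 rose and none fell (DESeq2 adjusted p under 0.05), where 4.66% of all genes tested were called higher and 0.395% lower (5.05% in either direction). The estimate was positive for 40 of 40 members, with a median log2 difference of 0.70 against -0.0117 over all genes tested. The largest differences belonged to Oas3, an OAS enzyme (1.24 ± 0.33 SE, adjusted p = 0.00947), Irf7, the factor that amplifies type I interferon (1.22 ± 0.33 SE, adjusted p = 0.0108), Oasl1, an OAS-like protein (1.22 ± 0.36 SE, adjusted p = 0.0234), and Mx1, a GTPase active against influenza virus (1.21 ± 0.32 SE, adjusted p = 0.0095).

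Among the RNA sensors and sensor kinases 3 of 6 rose. Dhx58 measured 511, 586 and 708 normalized counts (lowest, median and highest of 6) with isotype and 682, 1024 and 1768 with aPD1, a log2 difference of 0.93 ± 0.19 (SE, adjusted p = 0.00038). The groups overlapped only through CC001F1 aPD1 replicate 1 (682), which lay under the highest isotype tumor. Zbp1 measured 1611, 1985 and 2734 with isotype and 2483, 3639 and 5072 with aPD1, a log2 difference of 0.85 ± 0.16 (SE, adjusted p = 0.000111), again with that tumor inside the isotype range. Ifih1 rose by a smaller estimate (0.47 ± 0.13 SE, adjusted p = 0.0142). Ddx58, the RIG-I gene, measured 3656, 4784 and 5245 with isotype and 4464, 4787 and 6068 with aPD1 and was not called (0.10 ± 0.11, adjusted p = 0.728). Eif2ak2 (0.25 ± 0.11, adjusted p = 0.198) and the helicase-like Ddx60 (0.39 ± 0.17, adjusted p = 0.179) were not called either. The sensors thus ranged from the smallest estimate of the 40 members (Ddx58) to 0.93 (Dhx58).

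The 3 transcription factors all rose. Irf7 measured 1192, 1345 and 1775 normalized counts with isotype and 1601, 2537 and 7339 with aPD1, where the highest value was CC001F1 aPD1 replicate 2 and the lowest CC001F1 aPD1 replicate 1. Stat2 rose by 0.72 ± 0.16 and Irf9 by 0.44 ± 0.12 on the log2 scale, and both encode subunits of the factor ISGF3. Of the 7 members tied to ISG15, ubiquitin and ADP-ribosylation, 5 rose. Isg15, the ubiquitin-like modifier, measured 507, 553 and 755 with isotype and 692, 913 and 1789.6 with aPD1 (0.82 ± 0.18 SE, adjusted p = 0.00168), and Usp18, the protease that removes it, rose by 0.74 ± 0.23. Parp14 (0.52), Herc6 (0.36), the ligase that attaches Isg15 in mice, and Dtx3l (0.30) were the others, while Parp9 (0.28, adjusted p = 0.0516) and Trim25 (0.22, adjusted p = 0.204) were not called.

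In the OAS family 4 of 7 rose. Oas3 measured 606, 688 and 1079 normalized counts with isotype and 957, 1312 and 4168 with aPD1, and only CC001F1 aPD1 replicate 1 (957) overlapped the isotype tumors. Oasl1 measured 384, 425 and 509 with isotype and 419, 789 and 2450.2 with aPD1. Oas1a (0.68 ± 0.17 SE, adjusted p = 0.00429) and Oas1g (0.69 ± 0.22 SE, adjusted p = 0.0374) also rose. Oas2 (0.81 ± 0.31, adjusted p = 0.106), Oasl2 (0.64 ± 0.22, adjusted p = 0.0605) and Oas1b (0.38 ± 0.18, adjusted p = 0.251) were not called. Oas1b was the lowest member by normalized count (a mean of 218 over 23 tumors). Oas1a and Oas1g are close copies, and the split of reads between them is uncertain; Oas1g held 23.9% to 27.6% of their sum as line means.

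Of the 4 IFIT genes, 3 rose. Ifit2 measured 2302, 2754 and 2980.4 normalized counts with isotype and 3125, 3852 and 8196 with aPD1 (0.75 ± 0.23 SE, adjusted p = 0.0301), with every aPD1 tumor above every isotype tumor. Ifit3 (1.02 ± 0.33 SE, adjusted p = 0.0418) and Ifit3b (1.10 ± 0.36 SE, adjusted p = 0.0426) had larger estimates and wider errors, and Ifit1 was not called (0.58 ± 0.26, adjusted p = 0.233). Of the 6 direct effectors 5 rose, namely Mx1, Mx2 (0.98 ± 0.31), Cmpk2 (0.79 ± 0.19), Ifitm3 (0.38 ± 0.11), which blocks viral entry, and Bst2 (0.35 ± 0.10), which tethers budding virus and also marks plasmacytoid dendritic cells. Rsad2, the gene of viperin, measured 1494, 2053 and 2504 with isotype and 2578, 2910.0 and 7592 with aPD1. Its groups did not overlap, yet it was not called (0.77 ± 0.29, adjusted p = 0.0975). Without overlap between R aPD1 and R isotype tumors were Ifit2, Rsad2, Cmpk2 and Phf11d, 4 of 40 members, against 0.654% of the 13159 genes whose normalized counts averaged 50 or more. Of the other induced genes 6 of 7 rose, led by Ifi44 (0.93 ± 0.20 SE, adjusted p = 0.000737) and Phf11d (0.85 ± 0.19 SE, adjusted p = 0.00198), with Ifi35 the exception (0.16, adjusted p = 0.347).

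The calls within R lines depended on the test and on single tumors. edgeR's quasi-likelihood test called 0 members at an adjusted p under 0.05 (and 0% of all genes), with 38 members at an unadjusted p under 0.05 and a lowest adjusted p of 0.0636. Here and below, member counts at an unadjusted p under 0.05 stand without the share of all genes and are not calls. Leaving out 1 tumor at a time left 12 to 37 calls by DESeq2: 12 without CC075F1 aPD1 replicate 1, 14 without CC001F1 isotype replicate 1, 15 without CC075F1 isotype replicate 1 and 16 without CC002F1 aPD1 replicate 1. Here and below, a refit count given without the share of all genes does not show whether the members moved apart from other genes. Without CC001F1 aPD1 replicate 2, the tumor with the highest levels, 20 members rose (median 0.47) beside 1.98% of all genes. Without replicate 1 of the same group 37 rose (median 0.82) beside 7.85%. Without the line CC001F1 33 members rose beside 5.38% of all genes.

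By line, the change was taken for each member as the mean log2(normalized count + 1) of aPD1 tumors minus that of isotype tumors. For CC001F1 the median over members was 0.63, for CC002F1 0.73 and for CC075F1 0.54, with 40, 40 and 38 of 40 members up. In CC002F1 both aPD1 tumors had 40 members above the isotype mean. In CC001F1 the value of 0.63 averaged 0.0091 in replicate 1 (21 members up) and 1.28 in replicate 2 (40 up, 25 of them by 1 or more). In the NR lines the medians were -0.0572 in CC036F1 (14 up), -0.0335 in CC079F1 (18 up) and 0.11 in CC080F1 (31 up, from 1 aPD1 tumor).

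Within NR lines no member passed the test in DESeq2 or in edgeR, and none had an unadjusted p under 0.05 in either. Of all genes 0.0466% were called by DESeq2 and 0.0204% by edgeR. The member estimates lay on both sides of 0, 17 positive and 23 not, with a median of -0.0192 and a lowest adjusted p of 0.919 (DESeq2). Irf7 measured 1209.6, 1424 and 2246 normalized counts with isotype and 1177, 1435 and 2064 with aPD1 (lowest, median and highest of 5), Oas3 580.2, 781 and 969 against 725, 927 and 1021, and Mx1 628, 799.9 and 891 against 445, 584 and 944. For these 3 genes the isotype and aPD1 groups of NR tumors overlapped. The plot of the change with aPD1 sets each member's R and NR estimates side by side.

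**Figure D2:**
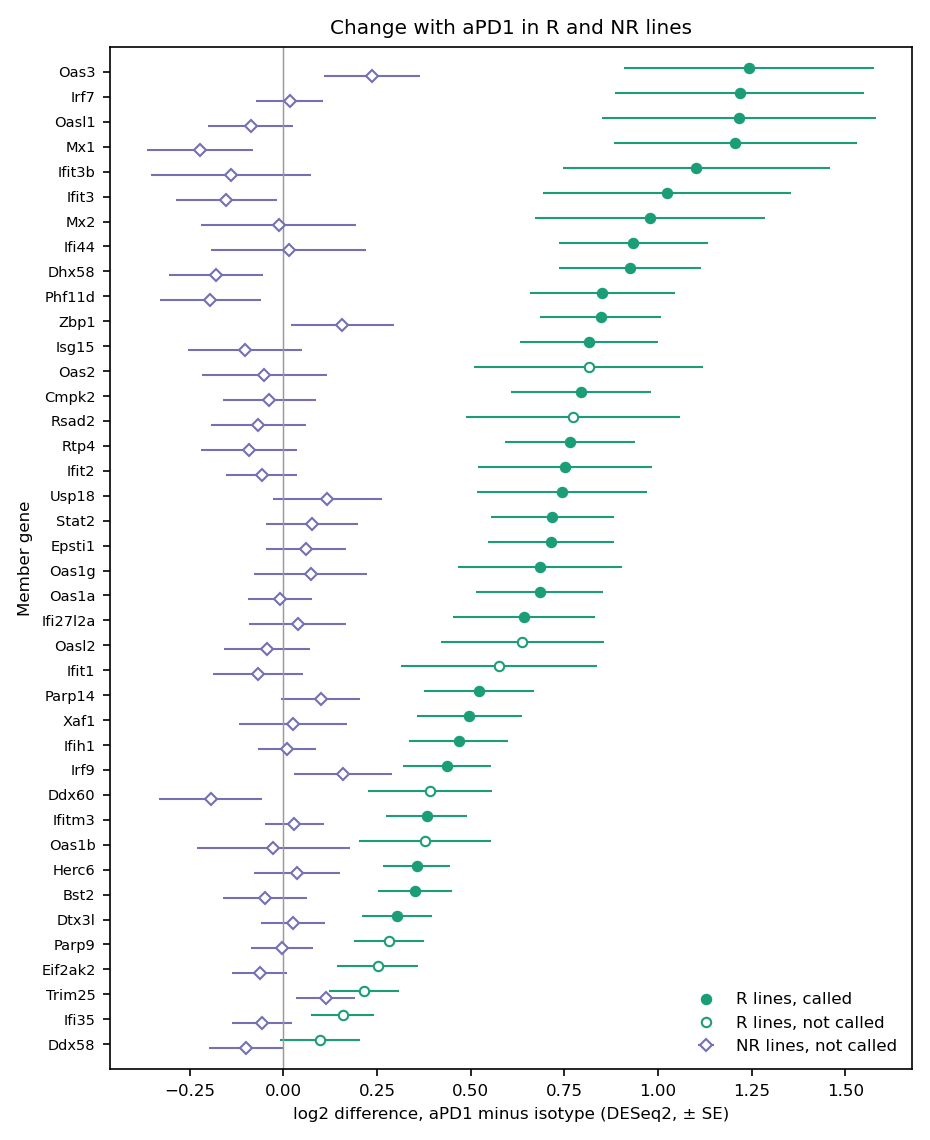
Change with aPD1 in R and NR lines for each of the 40 members, as log2 difference with its SE from DESeq2. Circles are R lines (filled where called, 29 members), diamonds are NR lines (0 called), and R estimates reach 1.24 in Oas3 whereas NR estimates scatter around a median of -0.0192.

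Whether the antibody effect itself differed between classes was tested as an interaction. The difference (R minus NR) was positive for 40 of 40 members with a median of 0.66, and 36 had an unadjusted p under 0.05. The shares of all genes for these counts are not given. Only Dhx58 was called (1.11 ± 0.25 SE, adjusted p = 0.0289), where 0.0190% of all genes were called higher, 0.0152% lower and 0.0342% in either direction. Dhx58 in NR tumors measured 522, 784 and 983 normalized counts with isotype and 562, 629 and 821 with aPD1, against 586 and 1024 as the R medians. Dhx58 lies on chromosome 11, 100694884 to 100704271 (GRCm38), and LGP2, its product, modulates signalling by RIG-I and MDA5. edgeR gave it an adjusted p of 0.348 and called 0 members, with 35 at an unadjusted p under 0.05. The call was lost when any 1 of 11 of the 23 tumors was left out: either isotype tumor of CC001F1, replicate 1 of CC002F1 or of CC075F1 with either antibody, replicate 2 of CC036F1 with either antibody, CC079F1 isotype replicate 2, CC080F1 isotype replicate 1 and the CC080F1 aPD1 tumor. Leaving out CC001F1 aPD1 replicate 1 gave 25 members beside 2.09% of all genes called higher, and leaving out the whole line CC001F1 gave 15 beside 0.550%. There were 4 called members without replicate 2 of CC075F1 with either antibody, and 2 without CC001F1 aPD1 replicate 2, CC079F1 isotype replicate 1 or replicate 1 of CC036F1 with either antibody. Among the 15 without CC001F1 were Mx1 (1.29), Oasl1 (1.14) and Irf7 (1.11).

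Over all 6 lines, 4 members rose with aPD1 (Oas3 0.78, Zbp1 0.53, Epsti1 0.41 and Irf9 0.31, log2 differences) and none fell, beside 2.69% of all genes called higher and 0.242% lower (2.93% in either direction). The estimate was positive for 40 of 40 members with a median of 0.37. edgeR called 0 (and 0.0569% of all genes), with 33 members at an unadjusted p under 0.05. The count moved between 0 and 14 when single tumors were left out, the highest without CC001F1 aPD1 replicate 1 and 0 without any 1 of 7 R tumors (CC001F1 isotype replicate 1, each CC002F1 isotype tumor, each CC075F1 isotype tumor, and replicate 1 of CC002F1 and CC075F1 with aPD1). It was 12 without CC036F1 isotype replicate 2, 10 without CC036F1 aPD1 replicate 2, 7 without the CC080F1 aPD1 tumor, and 1 or 2 without any of 8 other tumors.

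The next comparisons set R against NR lines. With isotype antibody 9 members were lower in R tumors and none higher, beside 3.23% of all genes called lower, 2.29% higher and 5.52% in either direction. These were Ifit3b (-0.83 ± 0.18), Ifit3 (-0.77 ± 0.16), Ddx60 (-0.75 ± 0.14 SE, adjusted p = 3.41e-05), Isg15 (-0.65 ± 0.14), Rsad2 (-0.65 ± 0.13), Ifit1 (-0.63 ± 0.12 SE, adjusted p = 4.91e-05), Phf11d (-0.54 ± 0.13), Cmpk2 (-0.46 ± 0.12) and Eif2ak2 (-0.25 ± 0.06), as log2 differences with their SE. Ifit1 measured 1069.6, 1203 and 1625 normalized counts in R and 1819, 1958 and 2421 in NR tumors, with no overlap. Eif2ak2, Ifit3 and Rsad2 also had all R tumors below all NR tumors, so 4 members did, against 0.866% of 13159 genes. Ddx60 overlapped only through CC075F1 isotype replicate 2 (1559), with 875, 1027 and 1559 in R and 1439, 1832 and 2201 in NR tumors. The median over the 40 members was -0.16. edgeR called 2 of the 9 (Ddx60 and Ifit1) beside 0.122% of all genes. Leaving out single tumors gave 9 to 13 calls.

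With aPD1, 11 members were higher in R tumors and none lower, beside 5.94% of all genes called higher, 1.99% lower and 7.94% in either direction. Mx1 (1.94 ± 0.61 SE, adjusted p = 0.0246), Irf7 (1.16 ± 0.38 SE, adjusted p = 0.0347) and Ifi44 (1.14 ± 0.38 SE, adjusted p = 0.0416) had the largest differences, followed by Epsti1 (0.81 ± 0.20), Dhx58 (0.77 ± 0.20), Ifit2 (0.69 ± 0.21), Oas1a (0.64 ± 0.19), Parp14 (0.61 ± 0.17), Zbp1 (0.57 ± 0.19) and Dtx3l (0.41 ± 0.12). Ifitm3 (0.41 ± 0.12) was the one member with every R tumor above every NR tumor, with 6103 to 9958 normalized counts in R (median 6957) and 5355 to 5949 in NR tumors (median 5477), as were 3.13% of 13159 genes. edgeR called 0 members and 2.25% of all genes, with 25 members at an unadjusted p under 0.05. Leaving out single tumors gave 5 to 19 calls: 19 without CC001F1 aPD1 replicate 1, 7 without CC075F1 aPD1 replicate 1, 6 without replicate 2 of either CC036F1 or CC079F1 aPD1, and 5 without CC079F1 aPD1 replicate 1. The isotype and aPD1 comparisons use separate tumors of the same 6 lines, and the difference between them is the interaction tested across classes.

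With both antibodies pooled and antibody in the model, 5 members were higher in R tumors (Mx2 1.36 ± 0.50, Mx1 1.08 ± 0.39, Epsti1 0.44 ± 0.14, Parp14 0.37 ± 0.11 and Dtx3l 0.25 ± 0.08) and 1 lower (Ddx60 -0.47 ± 0.12), beside 14.4% of all genes called (7.66% higher, 6.79% lower). That is a share of members near the share of all genes. The Mx2 and Mx1 differences came with the line CC001F1: without it Mx2 was -0.42 and Mx1 0.14, and 1 member was higher and 3 lower, beside 5.81% and 4.52% of all genes. With all 6 lines edgeR called Parp14, Dtx3l and Ddx60, beside 6.74% of all genes. The count fell to 3 without either aPD1 tumor of CC036F1. Class is a property of whole lines, so these fits count each tumor of a line separately. A limma fit in which line was random called 2 members over all tumors and 0 in either antibody group.

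Each line was then set against the mean of the other 5 lines, with antibody as a term. A member was said to depart from the module in a line by size alone, with no test. Its centred line mean had to lie 1 or more on the log2 scale from the median member of that line. Its mean normalized count had to be at least 50. The contrasts given for such pairs come from the same tumors that picked them. Of 240 member and line pairs 3 met this: Mx2 and Mx1 in CC001F1 and Ifi44 in CC002F1. The map of line means shows the 40 members over the 6 lines.

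**Figure D3:**
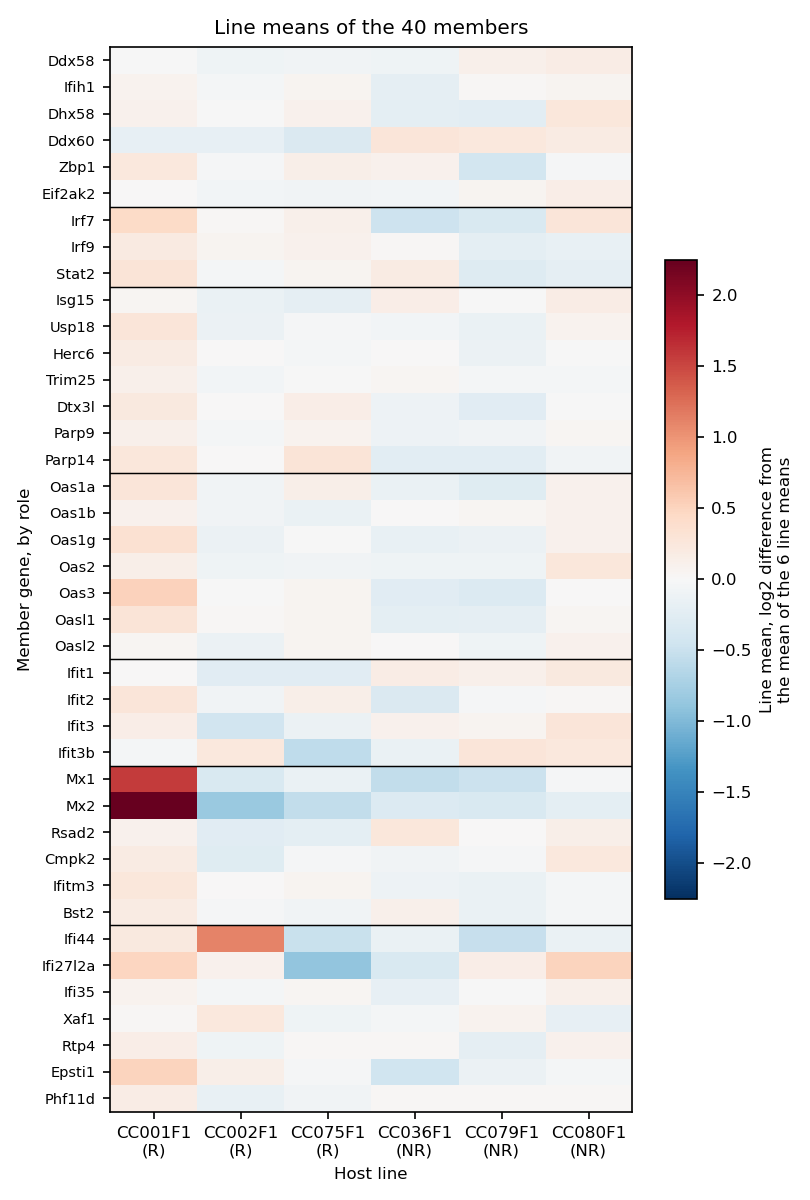
Line means of the 40 members, as the log2 difference from the mean of the 6 line means (colour scale), with members grouped by role in rows and host lines in columns. Mx1 (1.57) and Mx2 (2.25) in CC001F1 and Ifi44 (1.11) in CC002F1 stand out among member values that elsewhere lie between -0.88 and 0.52.

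Mx2 was the strongest. The 4 CC001F1 tumors measured 1017 and 1389 with isotype and 1218 and 4604 with aPD1, and the other 19 tumors ran from 132 to 392 normalized counts. The CC001F1 contrast was 2.85 ± 0.30 (SE, adjusted p = 1.14e-18). Mx1, its neighbour on chromosome 16, measured 1749 and 1852 with isotype and 1981 and 8407 with aPD1 in CC001F1 and 445 to 1420.2 in the other lines, a contrast of 2.08 ± 0.33 (SE, adjusted p = 2.36e-07). In the other lines Mx1 measured 509 and 446 with isotype and 1199 and 955 with aPD1 in CC002F1, 498 and 708 with isotype and 1420.2 and 898 with aPD1 in CC075F1, 630.2 and 749 with isotype and 689.9 and 445 with aPD1 in CC036F1, 628 and 886 with isotype and 584 and 553 with aPD1 in CC079F1, and 851 and 891 with isotype and 944 with aPD1 in CC080F1. The order of Mx1 line means after CC001F1 was CC080F1, CC075F1, CC002F1, CC079F1 and CC036F1, and neighbours in this order overlapped, although every CC036F1 tumor lay below every CC080F1 tumor. Both genes were above every other tumor in all 4 CC001F1 tumors, as were 0.0608% of 13159 genes. The isotype tumors of CC001F1 already exceeded every tumor of the other lines, and CC001F1 aPD1 replicate 2 was higher again. In CC001F1 4 members were called higher and none lower, beside 1.23% of all genes, with Ifi27l2a (0.65 ± 0.18) and Epsti1 (0.63 ± 0.16) after the Mx genes. edgeR called 3 beside 0.717%. The count was 2 without CC001F1 isotype replicate 1 or aPD1 replicate 2, 7 without CC075F1 aPD1 replicate 1 and 10 without CC001F1 aPD1 replicate 1, and the number of departing pairs was 3 with each tumor left out in turn.

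Mx1 lies at chromosome 16, 97447035 to 97462907 and Mx2 at chromosome 16, 97535308 to 97560900 on GRCm38. Within 500 kb of Mx2, 1 of 8 other genes tested was called in the same direction in CC001F1, and that gene was Mx1. Around Mx1 it was 1 of 7, Mx2. As background, C57BL/6J carries defective Mx1 and a truncated Oas1b, while some wild-derived strains carry intact alleles; GENCODE classes Mx2 and Oas1b as polymorphic pseudogenes in the reference. The values sum both haplotypes of the host and the MC38 cells, and which allele the Mx transcripts came from was not tested.

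Oas1b did not depart from the module in any line. Its contrasts against the other 5 lines ran from -0.19 to 0.13, and no adjusted p was below 0.773. The tumors measured 143 and 258 with isotype and 217 and 334 with aPD1 in CC001F1, 182 and 169 with isotype and 217 and 248 with aPD1 in CC002F1, 182 and 175 with isotype and 257 and 164 with aPD1 in CC075F1, 187 and 267 with isotype and 273 and 154 with aPD1 in CC036F1, 164 and 295 with isotype and 211 and 224 with aPD1 in CC079F1, and 239.6 and 202 with isotype and 245 with aPD1 in CC080F1 (normalized counts). Every line overlapped every other. The line means stood in the order CC080F1, CC001F1, CC079F1, CC036F1, CC002F1 and CC075F1, and no neighbours in it differed beyond their spread. Oas1b lies at chromosome 5, 120812635 to 120824163, in the cluster of OAS genes that also holds Oas1a, Oas1g, Oas2 and Oas3.

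Ifi44 was the third to depart. CC002F1 tumors measured 1149 and 1074 with isotype and 1979 and 1824 with aPD1, and the contrast was 1.25 ± 0.27 (SE, adjusted p = 0.00165), with an edgeR adjusted p of 0.0024. The other lines ran from 322 to 1829.7, and only CC001F1 aPD1 replicate 2 (1829.7) came into the range of the CC002F1 tumors. Of 8 other genes tested within 500 kb none was called in the same direction. Within the line both aPD1 tumors were above both isotype tumors for Ifi44, as for 39 of 40 members and 28.8% of 13159 genes. In CC002F1 1 member was called higher and 1 lower (Mx2, -1.07 ± 0.30, adjusted p = 0.0474 and 0.139 in edgeR), beside 0.472% and 0.203% of all genes (edgeR called 1 member and 0.277% of genes). The Mx2 call was lost in 15 of 23 runs without 1 tumor.

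Just inside the threshold of departure stood Ifi44 in CC002F1 (distance 1.17), and just outside Ifi27l2a in CC075F1 (-0.86) and Mx2 in CC002F1 (-0.77). Ifi27l2a, a small interferon-induced membrane protein, measured 285 and 279 with isotype and 535 and 316 with aPD1 in CC075F1 against 398 to 1729 in the other lines, a contrast of -1.07 ± 0.18 (SE, adjusted p = 2.1e-06). It was the only member called in CC075F1 (2 were without CC075F1 isotype replicate 2) beside 0.464% of all genes. In CC036F1, 2 members were lower, Epsti1 (-0.57 ± 0.17) and Ifi35 (-0.23 ± 0.08), beside 8.65% of all genes, and 0 were without CC036F1 aPD1 replicate 1 and 1 without aPD1 replicate 2. edgeR called 1 beside 8.06%. In CC079F1 Dtx3l was lower (-0.32 ± 0.09) beside 2.32%, a call lost in edgeR (0.937% of genes) and without any 1 of 6 tumors (CC001F1 isotype replicate 2, CC080F1 isotype replicate 1 and each of the 4 CC079F1 tumors). In CC080F1 no member was called beside 0.622% of all genes. edgeR also called 0 there (0.216% of genes), and 1 member had an unadjusted p under 0.05.

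**Figure D4:**
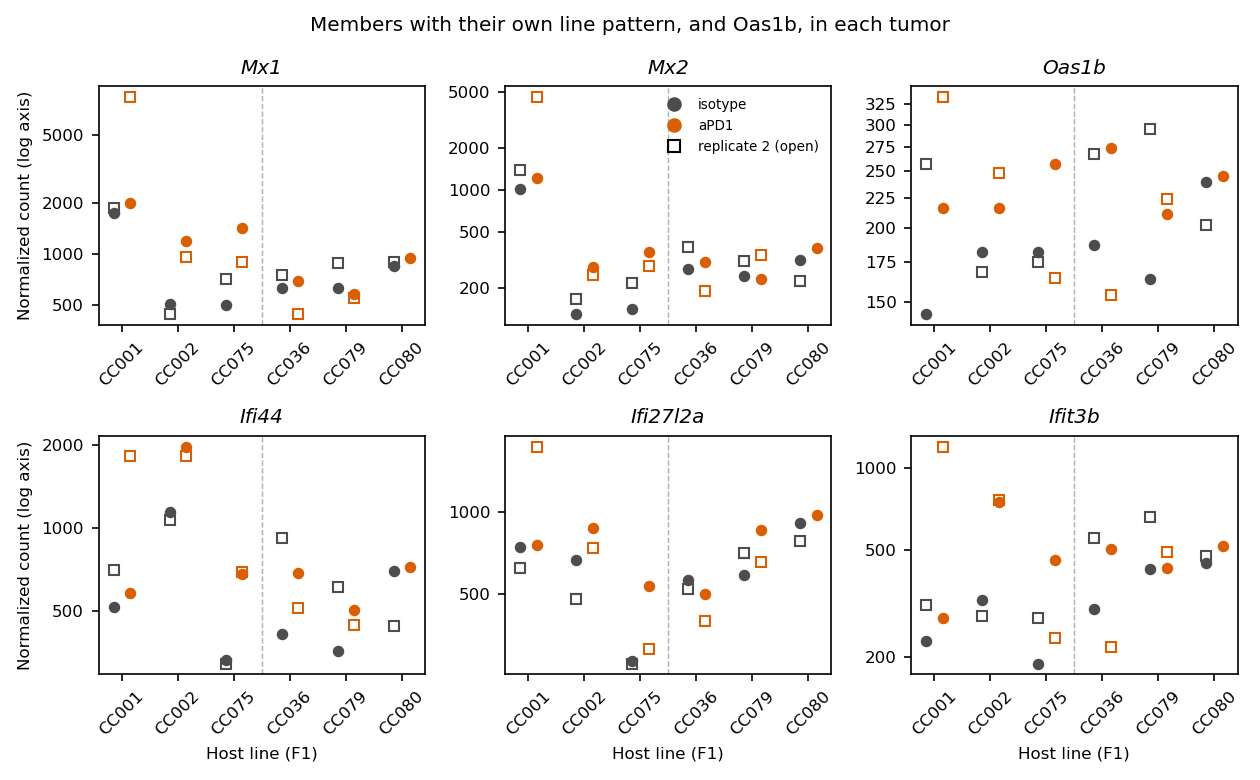
Normalized counts (log axis) of Mx1, Mx2, Oas1b, Ifi44, Ifi27l2a and Ifit3b in each tumor by host line, coloured by antibody. Mx1 and Mx2 are above all other lines in CC001F1, Ifi44 is high in CC002F1, Ifi27l2a is low in CC075F1 (279 to 535), and Oas1b overlaps across the 6 lines.

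The split between Ifit3 and Ifit3b also varied by line. These genes are close copies whose transcript sequences were not compared here, so the split of reads is uncertain. Ifit3b took 22.1% to 28.7% of their sum in the 4 CC002F1 tumors and 18.6% to 22.1% in CC079F1. In the other 4 lines it took 12.2% to 18.1%, so neither line overlapped them. The sum itself overlapped across the 6 lines, with line means from 2035 ± 951 (SD, n = 4, CC002F1) to 3038 ± 2607 (SD, n = 4, CC001F1).

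Taking off the member median of each tumor shows how far single members ran on their own. The remaining SD over the 23 tumors was smallest for Rtp4 (0.12 on the log2 scale), a receptor transporter, and largest for Ifi27l2a (0.50), Ifi44 (0.63), Mx1 (0.70) and Mx2 (1.00). The ratio of the highest to the lowest tumor was 34.9 for Mx2, 18.9 for Mx1 and 1.49 for Ifi35.

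Other genes of the interferon pathway, from lists of ligands, receptors, adaptors, limiting factors and other stimulated genes, were counted in the same fits. Of 63 such genes, 59 had an adjusted p in R lines, the rest being left without one by DESeq2. With aPD1, 27 of the 59 rose and none fell, beside 4.66% of all genes called higher and 0.395% lower. A positive estimate was held by 53 of 63, and the median was 0.35. Ifng was 2.83-fold higher (adjusted p = 0.00374), with a median of 47.9 and a highest value of 94.4 normalized counts with isotype, and 147 and 289 with aPD1, in R tumors. In NR tumors it measured 14.5 to 43.0 and 8.47 to 51.2. Ifnb1, the type I ligand, stayed between 0 and 21.2 counts in all tumors. Of 12 adaptors and other sensors 5 rose: Tlr9 (1.08), a sensor of DNA, Ikbke (0.71), the trafficking factor Unc93b1 (0.62), Tmem173 (0.45), which encodes STING, and Ticam1 (0.30). Of 10 genes that limit the pathway Socs3 (0.81), Trex1 (0.75) and Socs1 (0.51) rose. Among 27 other stimulated genes 17 rose, such as Ifi209 (1.09), Slfn5 (1.04), Ifi204 (1.03) and Gvin1 (0.93). Within NR lines 0 of 63 rose and 37 had a positive estimate, and the difference of the effect was called for 0. R against NR, 4 of 59 with an adjusted p were higher with isotype, 28 of 60 with aPD1 and 23 of 60 over all tumors, and none were lower. Of all genes 2.29%, 5.94% and 7.66% were called higher in these comparisons, in that order, and 3.23%, 1.99% and 6.79% lower. The interferon ligands Ifna1, Ifna2, Ifna4, Ifna5, Ifna6, Ifna12, Ifnl2 and Ifnl3 and the gene Oas1f were not analysed here.

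Cell type markers moved with part of these differences. In R lines with aPD1 the 5 T and NK cell markers (Cd3e, Cd8a, Cd8b1, Gzmb and Nkg7) had positive estimates and none was called. Their summed normalized counts ran from 1205 to 2388 with isotype and 1075 to 6261 with aPD1 in R tumors, and from 619 to 1672 and 631 to 1254 in NR tumors. In CC001F1 aPD1 the sum was 1075 in replicate 1 and 3947 in replicate 2, so the tumor high in members was also the higher of the pair in lymphocyte transcripts. Of 5 macrophage markers Cd68 (0.53) and Adgre1 (0.45) rose in R lines, with sums from 46102 to 100365 with isotype and 79519 to 138076 with aPD1. Among 4 conventional dendritic cell markers Xcr1 rose (1.41). Plasmacytoid dendritic cell markers, of cells that make type I interferon, had summed medians of 31.2 with isotype and 73.6 with aPD1 in R tumors. In NR tumors these medians were 30.7 and 22.4. The sums ran from 20.96 to 52.5 with isotype and 21.1 to 107.8 with aPD1 in R tumors. In NR tumors they ran from 11.9 to 55.5 with isotype and 14.5 to 110.5 with aPD1, so the groups overlapped. The highest sum (110.5) belonged to the CC080F1 aPD1 tumor. Skeletal muscle markers summed to 19466 in CC001F1 aPD1 replicate 1, the lower of the pair in members, and to 18.8 in replicate 2. Their sum also reached 8340 among R isotype tumors, 7535 in CC075F1 and 7452 among NR isotype tumors. R against NR, 5 of 5 T and NK cell markers and 3 of 5 macrophage markers were higher in R tumors with aPD1 and over all tumors, while with isotype only Nkg7 was higher. With aPD1, 4 of 5 muscle markers were higher and 3 of 3 B cell markers lower in R tumors. Markers moved in the line comparisons too. In CC036F1, where Epsti1 and Ifi35 were lower, 3 of 5 macrophage, 2 of 5 T and NK cell, 2 of 4 conventional and 1 of 3 plasmacytoid dendritic cell, 3 of 3 fibroblast and 4 of 5 muscle markers were lower, as were 17 of the 61 pathway genes with an adjusted p. Of all genes 8.65% were called lower in CC036F1. Of the MC38 and epithelial list 3 of 5 were lower there and 1 higher. In CC079F1, where Dtx3l was lower, 4 of 5 T and NK cell markers and 1 of 4 conventional dendritic cell markers were lower. In CC001F1 2 of 5 macrophage markers, 1 of 4 conventional dendritic cell markers and 1 of 5 muscle markers were higher, and in CC075F1 2 of 5 macrophage and 3 of 5 T and NK cell markers were. In CC002F1 1 of 5 macrophage markers and 1 of the 2 granulocyte markers with an adjusted p were lower, and in CC080F1 no marker of these lists was called. The part of these cells in the members' differences was not tested.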

How the data were processed

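The authors sequenced poly(A) libraries (KAPA mRNA HyperPrep, paired ends of 100 bases) of the 23 tumors, mapped reads with Bowtie 1.2.3 to transcriptomes of the founder strains (GENCODE vM23 on GRCm38) and ran gbrs to estimate counts per gene. These expected counts, in which reads shared by genes or haplotypes are split, were deposited without scaling for depth; 16.9% were not whole, and rounding moved a library total by at most 264.8 counts. Symbols came from GENCODE vM21 on the same build, which matched 26681 of 26869 genes (the 188 others held 0.0993% of counts). Library totals were 14494014 to 71868253. Replicate pairs differed beyond sampling noise (chi-square per degree of freedom 9.16 to 123.0). The main test was the DESeq2 1.42.0 Wald test (R 4.3.3) with genes of at least 5 counts in all and Benjamini-Hochberg adjustment over all genes, called at an adjusted p under 0.05. Alternatives were edgeR 4.0.16, limma 3.58.1 (line as a random effect), TMM factors, other count filters, the replicate number as a block, deep libraries alone, a depth term, each tumor left out and, chosen after seeing the data, no CC001F1 line and edgeR without CC001F1 aPD1 replicate 2. In RefSeq promoters, 4-base words recurring after a 2-base gap were counted on both strands and ranked, with no test. 1 gene of the pathway lists is not reported here. Scripts were tested on simulated data. Groups came from the labels and class from the study's text. The rule was to name up to 10 called members per comparison with the largest differences and a mean count of at least 50. Mx1 and Oas1b in every line, departing members, and OAS, IFIT and sensor genes were named too. In some comparisons more members were named than this rule set, called or not. The members, the pathway lists and the lists of markers (MC38 and epithelial, macrophage, T and NK cell, B cell, conventional and plasmacytoid dendritic cell, fibroblast, granulocyte, skeletal muscle) were chosen with earlier results of these data known.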

Additional observations from a re-analysis of the deposited data

Results flagged for a closer look

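Of 160 sets (40 members in 4 groups of class and antibody), 23 held a tumor far from the others by Dixon's criterion. Chance gives about 1 in 20 for independent sets, each from 1 population. These sets share tumors and pool host lines, so 23 is not to be read against that rate. CC001F1 aPD1 replicate 2 was the highest R aPD1 tumor by that criterion in 14 members, with normalized counts of Isg15 (1789.6), Usp18 (1713), Herc6 (4563), Oas1g (1087), Oas3 (4168), Oasl1 (2450.2), Ifit1 (3765), Ifit2 (8196), Ifit3 (5725), Mx1 (8407), Mx2 (4604), Rsad2 (7592), Cmpk2 (3598) and Phf11d (2302). CC001F1 isotype replicate 2 was the highest R isotype tumor in 4, Isg15 (755), Oas1b (258), Oas3 (1079) and Ifitm3 (6975). The others were Ddx60 (1559) in CC075F1 isotype replicate 2, Trim25 (4853) and Bst2 (3939) in CC036F1 aPD1 replicate 1 and Oasl1 (599) in CC080F1 aPD1 replicate 1, each the highest of its group, and Parp9 (4079) in CC036F1 isotype replicate 1, the lowest of its group. The aPD1 effect differed between R and NR lines for Dhx58 by 1.11 on the log2 scale (DESeq2 adjusted p = 0.0289, edgeR adjusted p = 0.348).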

How the results depend on the processing

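edgeR called 3 over all tumors R against NR (DESeq2 6), 2 with isotype (9), 0 with aPD1 (11), 0 for aPD1 in R lines (29), 0 over all lines (4), 0 for the difference of effects (1), 1 in CC002F1 (2), 1 in CC036F1 (2) and 0 in CC079F1 (1), and without CC001F1 aPD1 replicate 2 it called 0 in R lines and 0 for the difference of effects. limma, in which line was random, called 2, 0 and 0 in the R against NR comparisons (all tumors, isotype, aPD1). Of the 9 calls with isotype 6 held in the deep libraries alone, and of the 29 in R lines 25 held. The deep libraries alone gave 1 over all tumors, 6 with aPD1, 1 over all lines, 1 in CC002F1 and 0 in CC079F1. A depth term gave 2 over all lines and 3 for the difference. Without the line CC001F1 the counts were 2 and 15 for these, and Mx2 over all tumors was -0.42. With the replicate number as a block the counts were 4 (R against NR, all tumors), 13 (isotype), 7 (aPD1), 33 (R lines), 0 (NR lines), 3 (all lines) and 2 (difference), but the numbers do not pair tumors: over 55 pairs of groups the replicate differences correlated between -0.36 and 0.34. Leaving out 1 tumor gave 3 to 8 calls over all tumors, 9 to 13 with isotype, 5 to 19 with aPD1, 12 to 37 in R lines, 0 in NR lines, 0 to 14 over all lines, 0 to 25 for the difference, 2 to 10 in CC001F1, 1 to 2 in CC002F1, 1 to 2 in CC075F1, 0 to 2 in CC036F1, 0 to 1 in CC079F1 and 0 to 1 in CC080F1. Other count filters and TMM factors moved no count of members by over 1.5 times. There were 3 departing pairs under every alternative run. Most of these counts stand without the share of all genes in the same refit, and the cause of these shifts was not tested.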
